A study of Mus musculus with 8 samples.

Results

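Sox2, Sox9, Lgr5, Lrig1, Bmi1, Trp63, Isl1, Foxp1, Twist1 and Gas1 are genes that mark or maintain stem and progenitor cells of the dental epithelium and its surroundings, and their transcripts were compared between molars with and without epithelial Jagged1. The 10 genes were taken by name, with earlier results of these data known, from the 43629 genes counted in each embryo. All 10 were in the count tables, and 9 of them, all but Isl1, had enough reads to be tested among 17129 genes. The study's methods ask for a p of at most 0.05 and a fold change of at least 0.5, without naming a log scale. Here this was read as an unadjusted p of at most 0.05 with a log2 fold change of at least 0.5 in size. By these criteria of the study 0 of the 9 genes passed, and over all genes 14.2% did, so that with 9 genes the count says little. The transcripts of Foxp1, Twist1 and Bmi1 fell by small amounts, to between 0.786-fold and 0.832-fold of the control level, in K14Cre;Jagged1fl/fl molars at an adjusted p under 0.05. With 1 embryo left out 0 to 5 of the 9 genes passed this threshold, and 0 without J3, J5, J7 or K14J29. Without these embryos the calls of other gene lists below fell too, and the share over all genes is not given for these fits.

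Lower molars, left and right together, were dissected at E18.5 from 4 K14Cre;Jagged1fl/fl embryos (K14J26, K14J28, K14J29 and K14J30) and 4 Jagged1fl/fl control embryos (J3, J5, J6 and J7). By the labels both groups carried floxed Jagged1 alleles, whereas the study's methods call the controls WT littermates, and the mutants carried Cre under the keratin 14 promoter, which is active in epithelial cells, those of the oral mucosa included, so that the deletion is directed at the epithelium. The values are read counts per gene in whole molars, in which a lower value for fewer cells of a type cannot be told apart from less RNA per cell. Replicates were separate embryos, controls and mutants are described as littermates without the litter of each embryo, and sex was not given, so p-values measure the spread between these embryos.

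A developing molar is an epithelial cap over a neural crest-derived papilla. Its epithelium holds cycling progenitors, in the inner enamel epithelium and at the cervical loop, that give rise to enamel-secreting ameloblasts. In the continuously growing mouse incisor, cells at the cervical loop that express Sox2 and Lgr5 persist as stem cells, whereas the mouse molar stops growing once its roots form. Sox2, Sox9, Trp63, Isl1, Foxp1 and Twist1 encode transcription factors, Bmi1 a chromatin regulator, and Lgr5, Lrig1 and Gas1 membrane proteins that tune Wnt, growth factor and hedgehog signals. Jagged1 is a membrane ligand that activates Notch receptors on neighbouring cells, and Notch targets are switched on through the DNA-binding protein RBPJ. Not all 10 genes are epithelial only: Twist1 is best known from neural crest mesenchyme, and Gas1, Foxp1, Bmi1 and Sox9 are used by mesenchymal cells too.

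The promoters of Bmi1 and Twist1 are shown because these genes had an adjusted p under 0.05 and their upstream sequence lies just before the annotated start of the gene. RefSeq promoter entries on GRCm38.p6 matched 7 of the 10 genes, and the 250 bases before the start were searched on both strands for the RBPJ core, TGGGAA or TTCCCA, which is in capitals below. The bases span chr2:18676768-18677017 on the plus strand for Bmi1 and chr12:33957421-33957670 on the plus strand for Twist1.
Bmi1: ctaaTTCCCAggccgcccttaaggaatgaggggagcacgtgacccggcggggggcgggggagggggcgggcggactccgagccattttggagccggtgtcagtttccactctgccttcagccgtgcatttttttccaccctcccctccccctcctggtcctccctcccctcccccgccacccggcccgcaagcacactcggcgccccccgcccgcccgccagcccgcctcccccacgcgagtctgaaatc
Twist1: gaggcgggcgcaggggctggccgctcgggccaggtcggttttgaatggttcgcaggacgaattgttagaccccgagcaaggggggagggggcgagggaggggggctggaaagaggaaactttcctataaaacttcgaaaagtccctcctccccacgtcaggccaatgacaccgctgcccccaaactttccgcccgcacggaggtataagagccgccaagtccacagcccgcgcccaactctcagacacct
The core occurred 1 time in the Bmi1 window and in no window of the other 6 genes with an entry, while 21.6% of 32851 promoter windows of this length hold it. The GC box, GGGCGG or CCGCCC, occurred 6 times in the Bmi1 window and 1 time in that of Twist1, and 32.7% of all windows hold it. These matches describe the letters of the windows only. For Foxp1, 3 entries exist, and the window of each lies inside the annotated span of the gene, so none is printed.

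Between 17327224 and 28613574 reads were counted on genes per control embryo, and between 24692128 and 29792467 per mutant embryo. Values are given as CPM, counts relative to the library size in units of 1e6, after scaling of the library size by edgeR's TMM factors, which were 0.843 in K14J26, 0.969 in K14J29 and 1.02 to 1.04 in the other 6 embryos. At these depths 3 counts are worth 0.0998 to 0.166 CPM. Jag1, the floxed gene, had 95.2, 103, 104 and 99.8 CPM in the controls J3, J5, J6 and J7 and 34.0, 38.9, 45.9 and 57.1 CPM in K14J26, K14J28, K14J29 and K14J30, without overlap (log2 fold change -1.19, SE 0.14, adjusted p = 0.0052, edgeR quasi-likelihood with Benjamini-Hochberg). The mutants differed among themselves: 7 enamel genes summed to 114700, 3957, 26220 and 9970 CPM in the mutants in the order above, against 710.5 to 3421 CPM in the controls. K14J28 also had 903 CPM from 6 oral mucosa genes, against 39.7 to 206 CPM in the other 7 embryos, and Xist, the transcript of the inactive X chromosome, reached 1928 CPM in K14J28, 1467 CPM in K14J29 and no more than 1.09 CPM elsewhere. Among the controls, J6 and J7 had 373 and 184 CPM from 7 skeletal muscle genes, and no other embryo exceeded 17.6 CPM. In all of the 12 pairs of embryos within a group the counts differed by more than sampling noise.

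The levels of the 10 genes in control molars spanned a wide range once divided by the length of their annotated exons. Trp63 was the most abundant, at 52.0 ± 3.26 CPM per kb (SD, n = 4). Bmi1 at 20.1, Sox9 at 15.5, Twist1 at 13.3, Gas1 at 10.6 and Foxp1 at 8.87 CPM per kb formed a middle group. Lrig1 at 2.15, Sox2 at 1.03 and Lgr5 at 0.389 CPM per kb were low, and Isl1 at 0.0388 CPM per kb was at the limit of detection. In this order no gene's range over the 4 controls overlapped that of its neighbour. Dividing by all annotated exons understates a gene that uses only some of them, such as Foxp1 or Trp63, which have long annotated exon lengths of 13751 and 8391 bases.

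**Figure D1:**
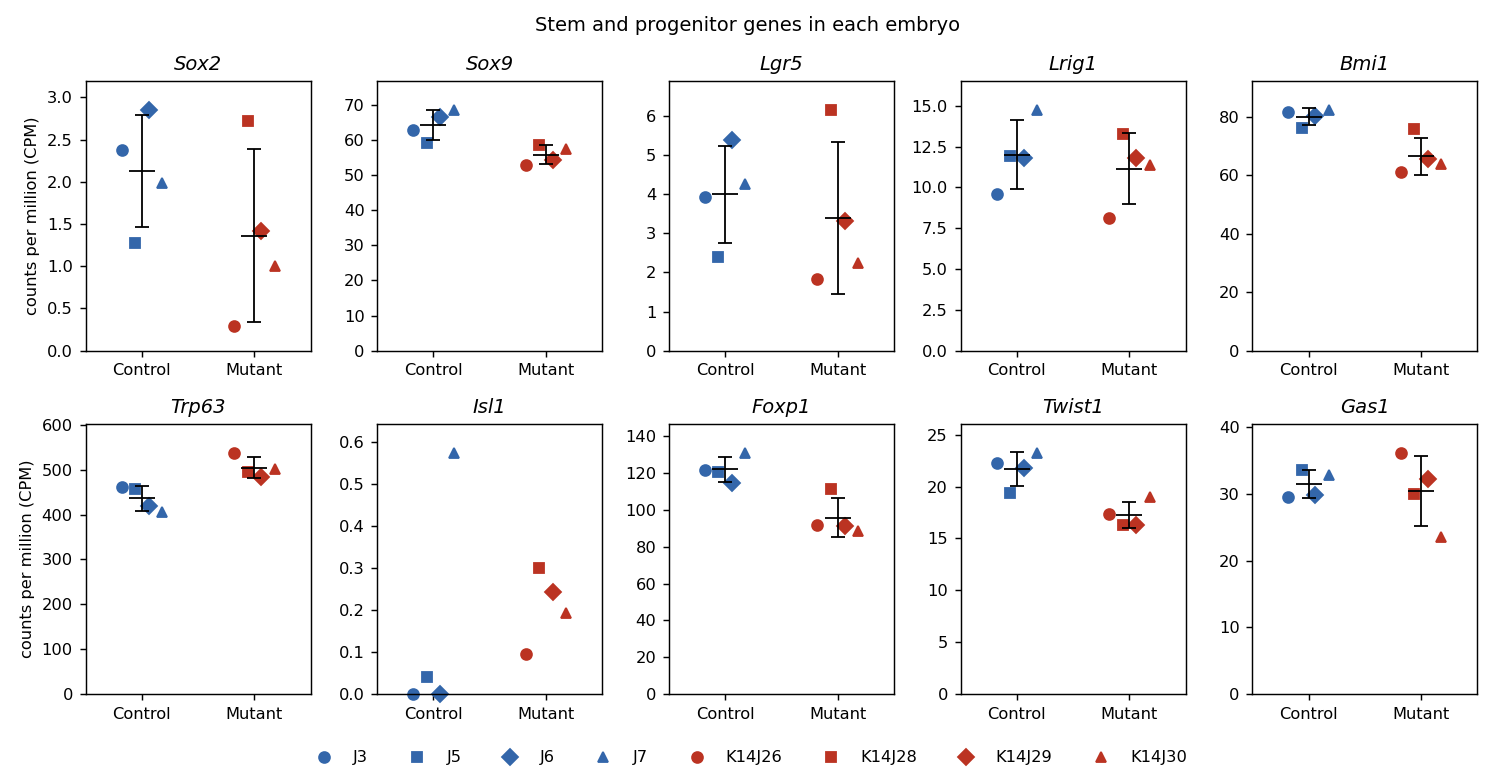
Normalised read counts in CPM (vertical axis, scale from 0, a different range in each panel) of the 10 genes in 4 control and 4 mutant embryos. Each symbol is an embryo, and the bar and whiskers are the mean and SD of a group, left out for Isl1, which has few counts. The mutants lie below the controls for Sox9, Bmi1, Foxp1 and Twist1 and above them for Trp63, and the groups overlap for the other 5 genes.

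Foxp1, Twist1 and Bmi1 were lower in the mutants at an adjusted p below 0.05, that is 3 of 9, and 0 were higher. At this threshold 6.61% of all genes were lower and 9.52% higher, 16.1% in either direction. A negative log2 fold change was found for 8 of the 9 genes, with a median of -0.22, whereas 50.7% of all genes had a positive one and the median over all genes was 0.0058. By the criteria of the study, which 5.85% of all genes met as lower and 8.33% as higher, the count was 0 in each direction with edgeR and also with DESeq2. At an unadjusted p of at most 0.05 edgeR listed 4 genes as lower and 1 as higher, that is 5 of 9 beside 34.9% of all genes. The groups did not overlap for these same 5 genes, 4 below and 1 above, whereas 24.2% of all genes had groups that did not overlap, 11.6% below and 12.6% above.

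Foxp1 encodes a forkhead repressor that restrains differentiation in several progenitor populations. On chr6:98925338-99522721 of GRCm38, minus strand, it had 122, 121, 115 and 131 CPM in the controls J3, J5, J6 and J7 and 92.0, 112, 91.3 and 88.5 CPM in K14J26, K14J28, K14J29 and K14J30. Every mutant lay below every control, with K14J28 close to the lowest control and the other 3 mutants within a narrow band. The log2 fold change was -0.35 (SE 0.084, 95% interval -0.54 to -0.16, adjusted p = 0.0273, edgeR quasi-likelihood with Benjamini-Hochberg). The level fell from 122 ± 6.64 to 95.9 ± 10.6 CPM (SD, n = 4 each). Without K14J28 the log2 fold change was -0.43 (adjusted p = 0.0048). The adjusted p was 0.0466 without J6 and 0.0315 without K14J26, and it rose to between 0.0555 and 0.0834 when J3, J5, J7, K14J29 or K14J30 was left out. Foxp1 shares 300 exonic bases on the same strand with Gm20696, which had 2.43 ± 0.46 CPM in the controls (SD, n = 4), so that reads there cannot be assigned to either gene alone.

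Twist1 encodes a basic helix-loop-helix factor of neural crest mesenchyme that works as a dimer with E proteins. At chr12:33957671-33959829, plus strand, it had 22.2, 19.4, 21.8 and 23.2 CPM in the controls and 17.4, 16.3, 16.3 and 19.0 CPM in the mutants, in the same order of embryos. The highest mutant, K14J30, lay just below the lowest control, J5. Its log2 fold change was -0.33 (SE 0.088, 95% interval -0.53 to -0.13, adjusted p = 0.0364, edgeR quasi-likelihood with Benjamini-Hochberg). The adjusted p stayed under 0.05 without K14J26, K14J28 or K14J30, and it passed just over 0.05 without J5 and was 0.0801 to 0.104 without J3, J6, J7 or K14J29. With the Xist level as a covariate the log2 fold change of Twist1 was -0.25 (adjusted p = 0.15), while that of Foxp1 was -0.45 (adjusted p = 0.0283) and that of Bmi1 -0.37 (adjusted p = 0.0286).

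Bmi1 encodes a ring-finger subunit of Polycomb repressive complex 1, which keeps the cell cycle inhibitor locus Cdkn2a silent in self-renewing cells. At chr2:18677018-18686629, plus strand, it had 81.6, 76.1, 80.2 and 82.3 CPM in the controls and 61.1, 75.6, 65.6 and 63.8 CPM in the mutants. The controls agreed closely, and K14J28 came within a small step of the lowest control while the other 3 mutants lay lower. This gave a log2 fold change of -0.27 (SE 0.075, 95% interval -0.43 to -0.10, adjusted p = 0.0427, edgeR quasi-likelihood with Benjamini-Hochberg). Leaving out K14J28 gave -0.34 (adjusted p = 0.0077), and leaving out any other embryo, control or mutant, gave an adjusted p between 0.0546 and 0.108. With library size alone as the scale the log2 fold change was -0.36 (adjusted p = 0.0701), and without a filter on low counts it was -0.27 (adjusted p = 0.0672). Cdkn2a itself had at most 0.363 CPM in any embryo and was not tested.

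Sox9 and Trp63 had groups that did not overlap and an adjusted p just over the threshold. Sox9 encodes an HMG-box factor of the lower incisor and molar epithelium that is also the master regulator of cartilage. It had 62.8, 59.1, 66.6 and 68.5 CPM in the controls and 52.8, 58.6, 54.3 and 57.5 CPM in the mutants (chr11:112782224-112787760, plus strand). All 4 mutants lay below all 4 controls, by a narrow margin between K14J28 and J5, and the log2 fold change was -0.20 (SE 0.068, 95% interval -0.36 to -0.05, adjusted p = 0.0685, edgeR quasi-likelihood with Benjamini-Hochberg). The adjusted p was 0.0463 with DESeq2 and 0.0469 without K14J28. The 7 cartilage genes summed to 140.5 to 229.8 CPM in the controls and 203.5 to 767.3 CPM in the mutants. Of these, Matn1 and Cnmd were at or near 0, with at most 0.20 and 0.384 CPM, and the higher sum in the mutants came from Col11a2, with means of 93.4 CPM in controls and 405 CPM in mutants. Hapln1 went from 73.1 to 43.1 CPM and Col2a1, named after its values were seen, from 12.5 to 9.99 CPM, and the part of cartilage in the Sox9 values was not tested.

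Trp63, the p53 relative that specifies stratified epithelia and keeps their basal cells proliferative, was the only tested gene of the 10 with a higher mean in the mutants. At chr16:25683763-25892102, plus strand, it had 461, 458, 419 and 406 CPM in the controls and 537, 496, 485 and 502 CPM in the mutants. The groups did not overlap, and K14J26 was highest, with a log2 fold change of 0.21 (SE 0.065, 95% interval 0.06 to 0.36, adjusted p = 0.0546, edgeR quasi-likelihood with Benjamini-Hochberg). The adjusted p was 0.0190 with DESeq2 and 0.0499 without K14J28, and library size alone as the scale gave 0.11 (adjusted p = 0.37). Krt14, a keratin of the same basal layer, had 824, 867, 974 and 735 CPM in the controls and 2375, 1098, 1741 and 1379 CPM in the mutants (log2 fold change 0.96, SE 0.21, adjusted p = 0.0217). In the same list of 10 epithelium genes Epcam and Cldn4, named after their values were seen, were lower by the criteria, at -0.51 and -0.59 on the log2 scale. Their adjusted p was 0.0527 and 0.123 (edgeR quasi-likelihood with Benjamini-Hochberg). By the criteria 0 genes of this list were lower without J3, J5, K14J26 or K14J29. With all embryos, 4 were higher and 2 lower at an unadjusted p of at most 0.05, and the median was -0.04.

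**Figure D2:**
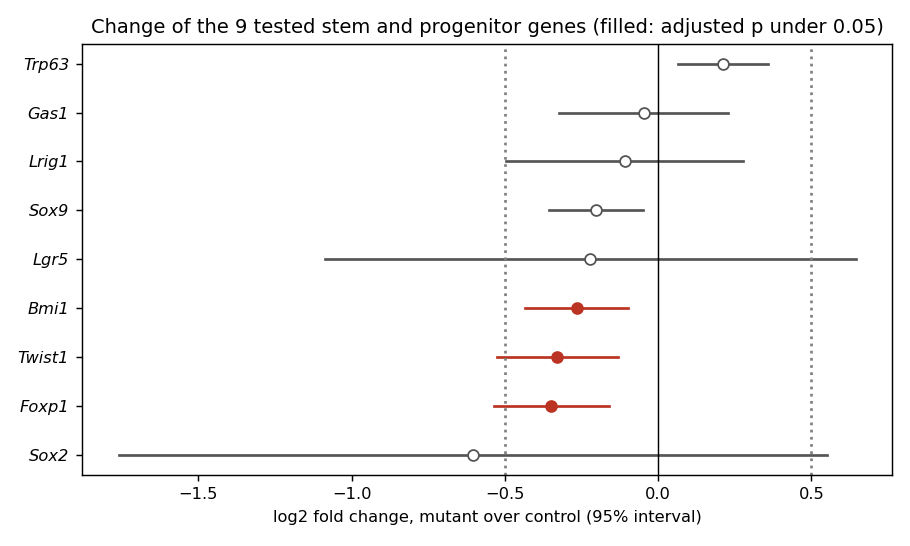
Log2 fold change of mutant over control (horizontal axis) for the 9 tested genes, with 95% intervals as lines. Filled symbols have an adjusted p under 0.05, and dotted lines mark 0.5 in each direction. The 3 filled genes lie between -0.35 and -0.27, and the intervals of Sox2 and Lgr5 are the widest.

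Sox2, the best known marker of the incisor stem cells, and Lgr5, the R-spondin receptor that marks Wnt-dependent stem cells in gut and incisor, varied far more between embryos than between groups. Sox2 (chr3:34650405-34652461, plus strand) had 2.38, 1.28, 2.85 and 1.99 CPM in the controls and 0.288, 2.73, 1.42 and 1.01 CPM in the mutants. K14J28 was as high as the top controls, and K14J26, with 6 counts, was the lowest of all 8 embryos. The log2 fold change was -0.60 with a wide error (SE 0.51, 95% interval -1.76 to 0.55, adjusted p = 0.43, edgeR quasi-likelihood with Benjamini-Hochberg). Without K14J28 it was -1.18 (unadjusted p = 0.0313, adjusted p = 0.0903), which is past the criteria of the study. Without K14J26 it was -0.29 (adjusted p = 0.62). With the Xist level as a covariate it was -1.82 (unadjusted p = 0.0106, adjusted p = 0.0616).

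Lgr5 (chr10:115450311-115587780, minus strand) had 3.93, 2.39, 5.39 and 4.25 CPM in the controls and 1.83, 6.15, 3.33 and 2.25 CPM in the mutants. K14J28 was the highest and K14J26 the lowest of all 8 embryos, further apart than any controls. Between the groups the log2 fold change was -0.22 (SE 0.38, 95% interval -1.09 to 0.64, adjusted p = 0.71, edgeR quasi-likelihood with Benjamini-Hochberg). Without K14J28 it was -0.68 (adjusted p = 0.13), without K14J26 it was -0.02, without J6 -0.05 and without K14J30 -0.07. With the Xist level as a covariate it was -1.04 (unadjusted p = 0.0275, adjusted p = 0.10), past the criteria as for Sox2. At 58 to 126 counts in the controls and 38 to 185 in the mutants the gene was well above the detection floor.

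In these low genes the order of the mutants was the same: K14J28, K14J29, K14J30 and K14J26 from high to low for Sox2 and for Lgr5. The summed oral mucosa genes followed this order too, with 903, 112, 99.4 and 49.0 CPM, led by Krt13 and Krt4 at 397 and 251 CPM in K14J28. Among the controls, J6 had the highest value of Sox2, of Lgr5 and of the oral mucosa sum, which were 2.85, 5.39 and 206 CPM. J7 did not follow: it had the lowest oral mucosa sum of all embryos, 39.7 CPM, but more Sox2 and Lgr5 than J5. The enamel sum was highest in K14J26, where Sox2 and Lgr5 were lowest, and lowest among the mutants in K14J28, where they were highest. K14J29 and J6 did not follow this inverse order. K14J29 had a higher enamel sum than K14J30 and higher Sox2 and Lgr5. J6 had the highest enamel sum of the controls, 3421 CPM, with their highest Sox2 and Lgr5. In J7, J3 and J5 the enamel sums were 710.5, 837.7 and 2117 CPM. There Lgr5 followed the inverse order, at 4.25, 3.93 and 2.39 CPM, while Sox2 was lowest in J5 but higher in J3 than in J7. K14J26 also had the lowest level of the proliferation gene Mki67, 151 CPM against 282 to 482 CPM in the other 7 embryos. Because Xist was high only in K14J28 and K14J29, the fit with Xist is close to a comparison of K14J26 and K14J30 with the controls, and without K14J28 and K14J29 the log2 fold changes were -1.66 for Sox2 and -0.96 for Lgr5. The part of oral tissue, enamel transcripts or proliferation in the values of Sox2 and Lgr5 was not tested, and sex cannot be told apart from what else these embryos share. Krt13, Krt4, Mki67 and Xist are named after their values were seen.

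Over the 9 tested genes, K14J28 was the highest mutant in 6 and K14J26 the lowest in 5, and in 5 genes, Sox2, Sox9, Lgr5, Lrig1 and Bmi1, these embryos held both places. Among all tested genes K14J28 was the highest mutant in 30.03% and K14J26 the lowest in 35.3%, and both held in 18.9%. The coefficient of variation between embryos rose from 31.3% in controls to 75.2% in mutants for Sox2 and from 31.0% to 57.5% for Lgr5. For Bmi1 it was 3.49% and 9.52%, and for Foxp1 5.44% and 11.1%. For Sox9, Trp63 and Twist1 it was 4.47% to 7.57% in either group. Its median over all tested genes was 8.81% in controls and 14.8% in mutants. The difference in spread between the groups was not tested.

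**Figure D3:**
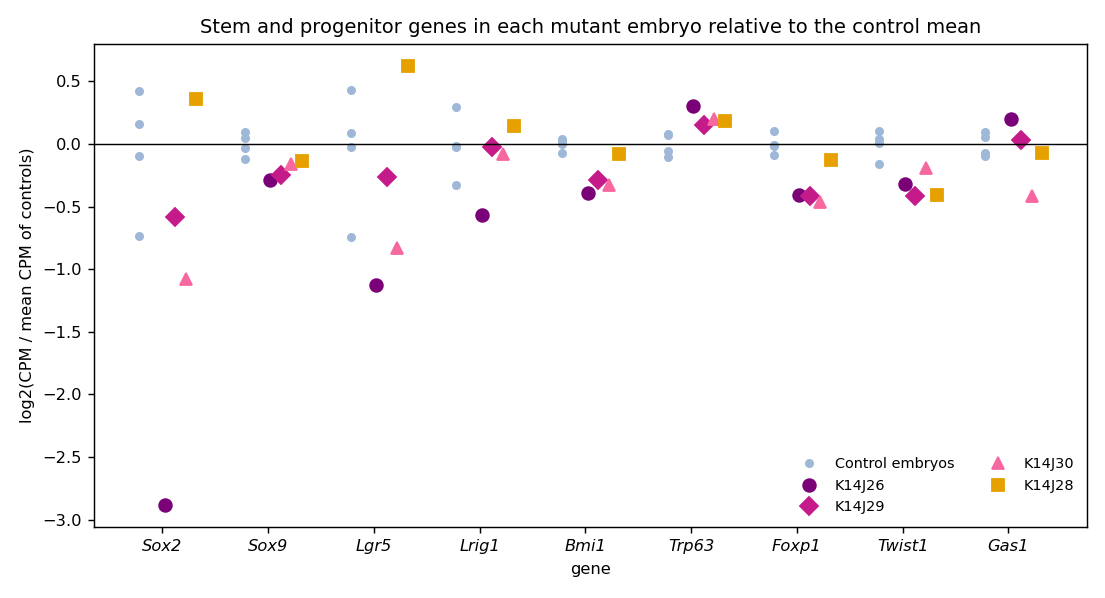
Log2 ratio of the CPM in each embryo to the mean CPM of the 4 controls (vertical axis) for the 9 tested genes. Small symbols are control embryos and large symbols the 4 mutants. K14J28 lies above the other mutants for Sox2 and Lgr5, and K14J26 lies far below them for Sox2.

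The 3 genes whose profile over the 8 embryos was most like that of Sox2 were Matn3, Slamf9 and Aqp3. The likeness is the root mean square difference of log2 CPM values centred on each gene's mean, and it was 0.29, 0.34 and 0.35 for these genes, against a median of 1.01 over all genes. Their own log2 fold changes were -0.94, -0.41 and -0.19. No other of the 10 genes had a log2 fold change of 0.5 or more in size.

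Lrig1 and Gas1 showed no difference beyond the spread between embryos. Lrig1, which encodes a transmembrane brake on growth factor receptors and marks quiescent stem cells of skin and gut, had 9.57, 11.9, 11.8 and 14.8 CPM in the controls and 8.12, 13.3, 11.8 and 11.4 CPM in the mutants (chr6:94604529-94700158, minus strand). The ranges overlapped in part, with K14J26 below all controls and J7 above all mutants. The log2 fold change was -0.11 (SE 0.17, 95% interval -0.50 to 0.28, adjusted p = 0.68, edgeR quasi-likelihood with Benjamini-Hochberg). It was 0.00056 without J7 and 0.01 without K14J26. Lrig1 shares 144 exonic bases with Slc25a26 on the opposite strand, which had 6.60 CPM in the controls, and the library kit named in the study's methods does not mark strand, so that reads in those bases cannot be told apart.

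Gas1 encodes a cell surface co-receptor for hedgehog ligands. At chr13:60174405-60177365, minus strand, it had 29.5, 33.7, 29.9 and 32.8 CPM in the controls and 36.1, 29.99, 32.2 and 23.5 CPM in the mutants. The mutants lay on both sides of the controls, with K14J26 highest and K14J30 lowest of all embryos. The log2 fold change was -0.05 (SE 0.12, 95% interval -0.32 to 0.23, adjusted p = 0.82, edgeR quasi-likelihood with Benjamini-Hochberg), and without K14J30 it was 0.06. It shares 589 exonic bases with Gm48488 on the opposite strand, which is not among the counted identifiers, so that reads of either gene there may be counted as Gas1. For Lrig1 and Gas1 the intervals reach no further than -0.50, so that larger falls than this lie outside them, whereas those of Sox2 and Lgr5 include falls of more than 1 on the log2 scale.

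Isl1, a LIM homeodomain factor of early oral epithelium and of neurons, was close to absent (chr13:116298281-116309689, minus strand). It had 0, 1, 0 and 17 counts in the controls J3, J5, J6 and J7 and 2, 9, 7 and 5 counts in K14J26, K14J28, K14J29 and K14J30. J7 alone reached 10 counts, at 0.574 CPM, and the mutants lay between 0.0961 and 0.299 CPM. No fold change is given, because the gene did not reach 10 counts in at least 2 embryos of either group. Of the neuron markers Prph was near 0, with at most 0.415 CPM, while Elavl4, named after its values were seen, reached 2.04 CPM and Tubb3 had 144 to 251 CPM, and the part of nerve tissue in the Isl1 values was not tested.

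Because molars mix layers, the 10 genes were also set against markers of each layer. The mean log2 CPM of 10 dental epithelium genes was 8.21 in controls and 8.26 in mutants, that of 10 dental mesenchyme genes was 7.68 and 7.64, and the groups overlapped for each. Genes within each list moved both ways: 4 epithelium genes were higher and 2 lower, and 3 mesenchyme genes higher and 5 lower (edgeR quasi-likelihood, unadjusted p of at most 0.05). The summed CPM was 6021 to 6942 in controls and 6898 to 9950 in mutants for epithelium, and 6782 to 9485 and 8406 to 19710 for mesenchyme. Even means thus do not show an equal amount of each layer. Relative to the epithelium mean, the mutants stayed below all controls for Foxp1 (difference of the means -0.40 on the log2 scale), Twist1 (-0.37), Bmi1 (-0.31) and Sox9 (-0.25) and above them for Trp63 (0.17). Relative to the mesenchyme mean, Twist1 alone stayed apart, at -0.29, and the ranges met for Foxp1 (-0.32), Bmi1 (-0.24), Sox9 (-0.17) and Trp63 (0.25). These ratios were described without a test.

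Known partners of the dental stem cell niche were read from the same fit, as a list of 25 genes of which 24 were tested. By the criteria of the study 4 were lower and 0 higher, with edgeR as with DESeq2, beside 5.85% and 8.33% of all genes, and the median log2 fold change was -0.16. At an adjusted p under 0.05 edgeR listed 6 as lower and 0 as higher, beside 6.61% and 9.52% of all genes, and at an unadjusted p of at most 0.05 it listed 7 and 3. Tbx1, a T-box factor needed for epithelial proliferation in the tooth, had 106, 121, 104 and 104 CPM in the controls and 67.0, 70.8, 54.3 and 64.6 CPM in the mutants, which lay well below (log2 fold change -0.76, SE 0.091, adjusted p = 0.0052). Etv4, an ETS factor switched on by FGF signals, had 142, 142, 108 and 148 CPM in the controls and 32.7, 101, 46.2 and 72.5 CPM in the mutants (-1.09, SE 0.30, adjusted p = 0.0392). K14J28 was the mutant closest to the controls for Etv4, as for Foxp1 and Bmi1.

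Fst, which encodes the activin inhibitor follistatin, also fell, with a log2 fold change of -0.87 (SE 0.26, adjusted p = 0.0488), although K14J28 at 11.2 CPM lay above the lowest control, J5, at 9.97 CPM. Foxd1, a forkhead factor, fell by 1.34 on the log2 scale (SE 0.35, adjusted p = 0.0327) at a low level of 9 to 28 counts in the controls and 3 to 10 in the mutants. The other 2 calls, named after their values were seen, were Sfrp5, a secreted Wnt antagonist of the cervical loop (-0.47, adjusted p = 0.0412), and the Hippo effector Yap1 (-0.24, adjusted p = 0.0331). The hedgehog target Gli1, also named after its values were seen, did not pass the adjusted threshold, at 0.41 (SE 0.20, adjusted p = 0.17) and with K14J26 at 389 CPM and the other 7 embryos between 183 and 225 CPM. Leaving out each embryo in turn gave 4 to 5 partners lower by the criteria, and 1 to 7 lower at an adjusted p under 0.05, with 1 without J7 and 1 without K14J29.

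Paralogues and binding partners of the 10 genes made a list of 36, of which 34 were tested and 2, Lgr4 and Lgr6, also stand in the list of niche partners. By the criteria 2 were higher, Sox21 and Sox1, and 8 lower. Sox1, at 0 counts in all controls, entered the tests only through 2 mutants with 10 counts or more. At an adjusted p under 0.05 there were 2 higher and 10 lower. These counts stand against the same shares of all genes as above, with a median log2 fold change of -0.20 in the list. Rspo2, which encodes an R-spondin ligand of the Lgr receptors, fell most: it had 36.4, 28.8, 39.4 and 55.1 CPM in the controls and 10.4, 10.7, 9.35 and 15.8 CPM in the mutants (log2 fold change -1.79, SE 0.22, adjusted p = 0.0052). All 4 mutants, K14J28 included, lay far below the lowest control. The receptors, of which Lgr4 and Lgr6 are named after their values were seen, did not pass the adjusted threshold, with log2 fold changes of -0.22 for Lgr5, 0.10 for Lgr4 and -0.28 for Lgr6 (adjusted p = 0.0526).

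Sox5, which encodes a partner of Sox9 on its target genes, had 9.30, 7.75, 9.90 and 14.6 CPM in the controls and 3.17, 3.59, 3.15 and 5.04 CPM in the mutants (log2 fold change -1.48, SE 0.23, adjusted p = 0.0096). Again every mutant was below every control. Twist2, the paralogue of Twist1, had 12.6, 8.90, 8.87 and 14.6 CPM in the controls and 7.40, 6.62, 5.61 and 7.48 CPM in the mutants (-0.73, SE 0.19, adjusted p = 0.0313), so that both Twist genes were lower without overlap. Sox21, a SoxB2 factor of differentiating dental epithelium, rose with a log2 fold change of 1.68 (SE 0.49, adjusted p = 0.0469), from 13.1 to 33.2 CPM in the controls to 133, 24.2, 66.7 and 46.1 CPM in the mutants. K14J28 lay within the control range for Sox21, and K14J26, with the highest enamel sum, was highest.

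The other 8 calls among the paralogues and partners are named after their values were seen. Cbx2 and Rnf2, subunits of the same Polycomb complex as Bmi1, were at -0.64 and -0.32 on the log2 scale (adjusted p = 0.0216 and 0.0193). Tcf12 and Tcf3, E proteins that dimerise with Twist1, had -0.34 and -0.31 (adjusted p = 0.0207 and 0.0205), and Foxp4, a paralogue of Foxp1, had -0.36 (adjusted p = 0.0217). Lrig3 had -0.63 and Lhx8, a LIM homeobox gene of dental mesenchyme, -0.53 (adjusted p = 0.0217 and 0.0408). Boc, which acts beside Gas1 as a hedgehog co-receptor, was the other higher call beside Sox21 at an adjusted p under 0.05, at 0.40 (adjusted p = 0.0277). Sox1 was at 0 counts in all controls and had 12, 1, 10 and 2 counts in the mutants (adjusted p = 0.0754), and Sox3 and Isl2 were at or near 0 in all embryos. Leaving out each embryo in turn gave 2 to 14 lower calls at an adjusted p under 0.05, with 2 without J3, J7 or K14J29, and 0 to 4 higher calls, with 0 without any of the controls or K14J29.

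**Figure D4:**
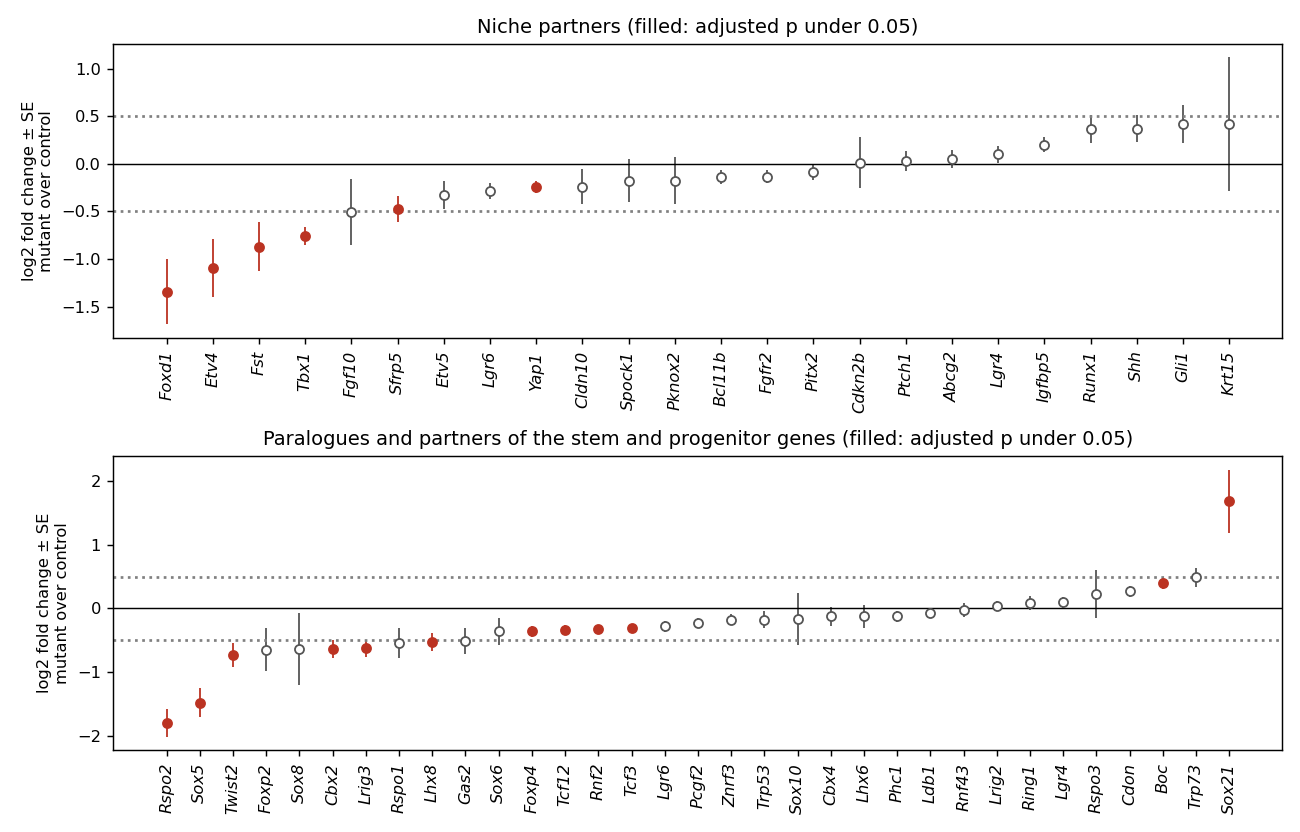
Log2 fold change of mutant over control with its SE (vertical axis) for tested niche partners (top) and for tested paralogues and partners of the 10 genes (bottom), ordered by value. Filled symbols have an adjusted p under 0.05 and dotted lines mark 0.5 in each direction, and Sox1, at 0 in all controls, is left out. The lower calls outnumber the higher ones in both panels, 6 to 0 and 10 to 2, with Rspo2 at -1.79 as the lowest value.

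The marker lists of the tissues in and around the molar were counted in the same way, at an adjusted p under 0.05 with edgeR's quasi-likelihood test. Of 6 tested ameloblast genes 5 were higher, led by Enam (log2 fold change 5.61), Ambn (5.32), Amelx (4.17) and Mmp20 (3.19), and of 6 odontoblast genes 5 were higher, led by Dspp (2.31), Phex (1.40), Col1a1 (1.10) and Nes (0.61). The median log2 fold changes of these lists were 3.84 and 0.86. Of 10 dental epithelium genes 1, Krt14, was higher and 0 lower (median -0.04), and of 10 dental mesenchyme genes 3 were higher, among them Col1a1 and Nes, and 3 lower, among them Barx1 (-0.59) and Lhx8, with a median of -0.24. Of 6 alveolar bone genes 3 were higher, Bglap (2.56), Bglap2 (1.91) and Sp7 (0.38), with a median of 0.36. Of 5 tested cartilage genes Col11a2 was higher (2.12) and Hapln1 lower (-0.76), with a median of -0.29. Of 6 tested Schwann cell and neuron genes Tubb3 was higher (0.48) and Ngfr lower (-0.53), with a median of -0.17. These counts moved with 1 embryo left out: the higher calls ranged from 1 to 6 for ameloblast, 0 to 5 for odontoblast, 0 to 3 for alveolar bone, 0 to 3 for dental mesenchyme and 0 to 4 for dental epithelium genes. Without J3, J5, J7 or K14J29 there was 1 higher call among the ameloblast genes, 0 to 1 among the bone genes and 0 in the other lists of this paragraph. The lower calls among the dental mesenchyme genes ranged from 0 to 5, with 0 without K14J29, 1 without J3, J5 or J7 and 5 without K14J28. The Schwann cell and neuron genes had 0 lower calls without J3, J5, J7 or K14J29, and 0 higher calls without these embryos or K14J30. By the criteria of the study 6 ameloblast genes were higher in each of these 8 fits.

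Of 7 skeletal muscle genes 1, Ckm, was lower (-4.69), while DESeq2 called 5 as lower, edgeR without a low-count filter also 5, and edgeR with 1 embryo left out 0 to 3, with 0 without J6, J7, K14J29 or K14J30 and 3 without J3. The median of the list was -3.68, with 6 of 7 lower at an unadjusted p of at most 0.05. Its high values came from J6 and J7. Without these embryos the log2 fold changes were -0.34 for Foxp1, -0.27 for Twist1 and -0.24 for Bmi1, against -0.35, -0.33 and -0.27 with all embryos, and 0 of the 10 stem and progenitor genes passed an adjusted p of 0.05, as was also the case without J3 or J5 alone. No gene of the oral mucosa, endothelium or macrophage lists passed in either direction (medians 1.17, -0.15 and 0.17). At an unadjusted p of at most 0.05 these lists had 0, 2 and 0 genes, and DESeq2 called 2 endothelium genes as lower and none in the other 2 lists, of which it tested 3 of the 6 oral mucosa genes. The oral mucosa and endothelium sums stood at 39.7 to 206 and 265 to 295 CPM in the controls and at 49.0 to 903 and 216 to 267 CPM in the mutants. The macrophage sum was 158.1 CPM in K14J28 and 54.8 to 86.4 CPM in the other 7 embryos. The part of macrophages, oral tissue and the enamel transcripts in the values of the 10 genes was not tested.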

How the data were processed

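RNA of lower molars from 8 embryos was sequenced. The authors aligned the reads with STAR to GRCm38.p3 and deposited raw counts per Ensembl gene for each embryo. The labels name featureCounts and the study's methods GenomicRanges as the counter, and the treatment of reads with several matches is not given in the sources used here. GENCODE M21 on GRCm38 gave symbols, positions and exon lengths for 42462 of 43629 identifiers.

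A gene entered the tests when 2 or more of the 4 embryos of a group had 10 counts or more. For the 17129 genes that did, edgeR 4.0.16 (R 4.3.3) was used with TMM scaling and its quasi-likelihood test, no covariates and Benjamini-Hochberg adjustment. Reads per embryo ranged from 17327224 to 29792467, Isl1 had at most 17 counts in an embryo and Sox2 as few as 6. On simulated counts for 16826 genes of this comparison with 200 changed, 95% were recovered at a log2 change of 1 and 100% at 2, and 4.88% of the calls were false.

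The 10 genes and all gene lists were chosen with earlier results of these data known. Named are all 10 genes with their values, of each other list at most 4 genes with an adjusted p under 0.05 by size of change, defining markers near 0, Jag1, the 3 genes with the profile nearest to a gene changed by 0.5 or more, and annotated overlaps. Naming outside this rule is stated where it occurs. The values of 1 gene of the marker lists are not reported here.

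Alternatives were relative log expression factors, library size alone, DESeq2 1.42.0, no filter or 10 counts in every embryo, a log2 fold change of 1, leaving out each embryo, J6 and J7 together, and Xist as a covariate. Leaving out K14J28 and K14J29, or K14J26 and K14J29, was added after seeing the data.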

Additional observations from a re-analysis of the deposited data

Results flagged for a closer look

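Isl1 stood out in a control embryo: J7 had 0.574 CPM, from 17 counts, against at most 0.0412 CPM in the other 3 controls, a gap larger than Dixon's limit for 4 values. Foxp1 stood out in a mutant embryo by the same measure, with 112 CPM in K14J28 against 88.5 to 92.0 CPM in the other 3 mutants. Chance alone sets such a flag in about 1 of 20 groups of 4, and 10 genes in 2 groups were examined. Without K14J28 the log2 fold change of Foxp1 was -0.43 (adjusted p = 0.0048, edgeR quasi-likelihood with Benjamini-Hochberg), and over its alternatives the adjusted p ranged from 0.0038 to 0.18.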

How the results depend on the processing

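No paired analysis was possible because the replicate numbers are not shared between the groups. None of the 9 tested genes met the criteria as higher in any alternative. As lower, the count was 0 in the alternatives other than these: 1 without K14J28, which was Sox2 (0 to 1 over the 8 fits that leave out an embryo), 2 with Xist as a covariate and 2 without K14J28 and K14J29, each time Sox2 and Lgr5. Sox2 then had log2 fold changes of -1.82 and -1.66 and Lgr5 of -1.04 and -0.96, with adjusted p between 0.0616 and 0.101. The number of genes with an adjusted p under 0.05, which was 3, was 5 with DESeq2 (Sox9 and Trp63 in addition), 1 without a filter and 2 with library size alone. It was 0 without J6 and J7 and 0 without K14J26 and K14J29. With 1 embryo left out it was 0 to 5: 0 without J3, J5, J7 or K14J29, 1 without J6 or K14J30, 2 without K14J26 and 5 without K14J28. Without J3, J5, J7 or K14J29 the higher calls among the ameloblast genes also fell, from 5 to 1. Over the fits that leave out 1 embryo the log2 fold changes were -0.434 to -0.311 for Foxp1, -0.391 to -0.299 for Twist1 and -0.338 to -0.226 for Bmi1. The share of all genes with an adjusted p under 0.05 is not given for these fits. The cause of these changes in the count was not tested.

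The direction reversed for Lgr5 at 0.12 without J6 and J7 and at 0.0769 without K14J26 and K14J29, for Lrig1 at 0.0537 and 0.0219 in the same fits, at 0.00056 without J7 and at 0.0114 without K14J26, and for Gas1 at 0.0589 without K14J30. With 1 embryo left out Lrig1 ranged from -0.208 to 0.0114 and Gas1 from -0.137 to 0.0589. The cause was not tested. The direction of Sox2, Sox9, Bmi1, Trp63, Foxp1 and Twist1 was the same in every alternative that gave a value, and Sox2 gave none with 10 counts required in every embryo. Over all genes, 1426 were higher and 1002 lower by the criteria, 1033 and 1370 with library size alone, which moved the median log2 fold change of all genes to -0.09, and 1143 to 1645 and 760 to 1385 with 1 embryo left out.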
